A study of Mus musculus with 8 samples.

Results

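The unfolded protein response genes described here are Atf4, Atf6, Xbp1, Ern1, Hspa5, Hsp90b1, Herpud1, Dnajb9, Trib3 and Ppp1r15a. They were picked by gene symbol from the annotation of the array, and all 10 of the 10 were found among the 18194 genes with a probe set of their own. They have 26 of the 45101 probe sets, and the brightest probe set of a gene, by its mean of 8 arrays, leads while the others check it. RNA of mouse mammary epithelial cells was measured on 8 Affymetrix arrays, 1 per sorted sample, in 4 groups of 2 biological replicates. The first group is KO CD29hi, the LIN-CD24+CD29hi cells of glands with a germline knockout of C/EBPb, and WT CD29hi is the same sort from wildtype glands. KO CD29lo is the LIN-CD24hiCD29lo fraction of the knockout glands, and WT CD29lo that of wildtype glands. The knockout is germline and so is not limited to the sorted cells, and cells of 10 mice per group were isolated in paired sets. The labels used here do not state the age of the mice, the deleted part of Cebpb, the sort purity or which mice lie behind each array. The stated question is which signalling pathways depend on C/EBPb, a basic leucine zipper transcription factor, in stem and progenitor fractions of the gland. The p-values below rest only on the spread between replicates within these groups, pooled over the groups. The spread of each gene is also drawn towards that of other genes of similar level.

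The unfolded protein response is the signalling that a cell starts when unfolded proteins build up in the endoplasmic reticulum (ER). It has a trio of sensors in the ER membrane. IRE1, the product of Ern1, removes a short intron from Xbp1 mRNA, which then encodes an active transcription factor. ATF6 is cut in the Golgi, and its freed part induces ER chaperones. PERK, the product of Eif2ak3, slows translation and lets ATF4 accumulate, and ATF4 induces genes of amino acid supply and of feedback. Secretory mammary epithelium depends on this machinery, and C/EBP proteins can dimerise with ATF4.

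All values are the deposited log2 signals, so a difference of 1 is a doubling. The background, set for each array at the 95th percentile of 27 Bacillus control probe sets, lay between 3.835 and 4.41. Every leading probe set of the 10 genes lay above the background on 8 of 8 arrays. Cebpb itself read 8.6 and 9.38 in KO CD29hi against 11.95 and 12.25 in WT CD29hi, and 9.23 and 8.89 in KO CD29lo against 11.83 and 12.18 in WT CD29lo. Every knockout array was below every wildtype array (averaged over both gates, log2 fold change -3.03 ± 0.194 SE, limma adjusted p = 0.00277). The knockout arrays still lay far above the background for Cebpb, and whether its probe set lies in the deleted part is not known here. Markers matched the gates: the mean log2 level of 12 basal markers such as Krt5 and Acta2 was 11.73 to 12.18 in CD29hi and 7.41 to 8.0 in CD29lo, and that of 12 luminal markers such as Krt8 and Krt18 was 8.13 to 8.78 in CD29hi and 10.83 to 11.1 in CD29lo. Fibroblast markers were uneven. The summed linear signal of 11 of them was 889 and 1900 in KO CD29hi, 899 and 1730 in WT CD29hi, 4010 and 27700 in KO CD29lo, and 12600 and 37700 in WT CD29lo, with none at 0. Of 11 blood cell markers 3 to 8 lay above the background per array, of 8 plasma cell markers 3 to 6, and of 8 endothelial markers 5 to 8. In such sorted populations fewer cells of a type and less RNA per cell cannot be told apart.

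The promoters of 9 of the 10 genes were found in a RefSeq table of build GRCm38.p6 (Atf6 had no entry), and the 250 bases before each start were searched on both strands. The ER stress element ERSE, the site through which ATF6 acts with NF-Y, was searched as CCAAT and CCACG with 9 free bases between them. It was found before Hspa5 and, as a pair of copies, before Hsp90b1, and in 0.113% of all 32851 promoters. The search ended at the start, so an element that runs past it could not be found. The shorter ERSE-II, ATTGG and CCACG with 1 free base between them, was found before Herpud1 and in 0.0304% of all promoters. The composite element bound by ATF4 with C/EBP proteins, TGATGNAA, was found before Herpud1 and in 3.45% of all promoters. Xbp1 held the C/EBP letters TTGCNNAA, found in 9.56% of all promoters. The XBP1 core TGACGTGG was found before 0 of the 9 genes and in 0.563% of all promoters, and the CCAAT box CCAAT, which lies inside both ER stress elements, before 5 of the 9 and in 33.8%. The 3 promoter stretches with an ER stress element are shown because the profiles of these genes ran closely together over the arrays. Each runs 5′ to 3′ along the strand of its gene, and capitals mark ERSE in Hspa5 and Hsp90b1, and in Herpud1 the composite element followed by ERSE-II.
Hspa5, chr2:34771940-34772089, plus strand: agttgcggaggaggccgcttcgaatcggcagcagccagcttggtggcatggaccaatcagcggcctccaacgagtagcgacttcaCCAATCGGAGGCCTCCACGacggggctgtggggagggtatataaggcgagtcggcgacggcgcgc
Herpud1, chr8:94386279-94386428, plus strand: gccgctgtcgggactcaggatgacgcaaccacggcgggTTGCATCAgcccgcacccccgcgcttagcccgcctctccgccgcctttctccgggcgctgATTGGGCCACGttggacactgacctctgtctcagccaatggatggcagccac
Hsp90b1, chr10:86705524-86705694, minus strand: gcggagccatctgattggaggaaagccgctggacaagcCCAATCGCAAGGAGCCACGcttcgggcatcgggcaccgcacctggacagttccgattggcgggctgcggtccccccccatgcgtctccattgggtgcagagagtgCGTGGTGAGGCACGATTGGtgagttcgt
The Hspa5 element lies 65 to 47 bases before the start, that of Herpud1 52 to 42 bases. The composite element of Herpud1 lies 112 to 105 bases before its start and reads in the reverse orientation. The Herpud1 stretch ends in a CCAAT 18 to 14 bases before the start, 9 further bases and CCAC. The next base was not searched, so whether a complete ERSE lies there is not known here. In Hsp90b1 a forward copy of ERSE lies 212 to 194 bases and a reverse copy 107 to 89 bases before the start.

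Loss of C/EBPb left none of the 10 genes past the threshold in either sort. In CD29hi cells 9 of the 10 lay above 0 in the knockout, as did 48.1% of all genes tested. The median log2 fold change of the 10 was 0.17 against -0.02 over all genes, and 0 passed limma's test (1 had an unadjusted p under 0.05). Without KO CD29hi replicate 1, 7 of the 10 lay above 0 with a median of 0.1. Without KO CD29hi replicate 2, 8 did with a median of 0.325. In CD29lo cells 4 of the 10 and 43.6% of all genes lay above 0. The median of the 10 was -0.07 against -0.06 over all genes, and 0 passed (0 had an unadjusted p under 0.05). Very few genes of the array passed either: 0.0137% of 14598 in CD29hi, 0.0137% in CD29lo and 0.0685% with the gates averaged (0.00685% higher, 0.0617% lower), where 0 of the 10 genes passed too (0 at an unadjusted p under 0.05). An unadjusted limma p under 0.05 was found for 1145 of the 14598 genes in CD29hi, 975 in CD29lo and 1353 with the gates averaged. The genotype contrasts of the gates did not differ past the threshold for any of the 10 (interaction, limma adjusted p of 0.961 or more, 0 at an unadjusted p under 0.05), nor for any other gene (0.0% called, 722 genes with an unadjusted p under 0.05).

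Between the gates many genes of the array differed past the threshold, and 0 of these 10 did. Averaged over both genotypes, 22.9% of all genes were called between CD29hi and CD29lo, against 0 of the 10 (3 had an unadjusted p under 0.05: Trib3, Ern1 and Hsp90b1). Within the knockout 14.1% of all genes and 0 of the 10 were called (2 with an unadjusted p under 0.05), and within wildtype 8.19% and 0 of the 10 (0 with an unadjusted p under 0.05). An unadjusted limma p under 0.05 was found for 5195 of all 14598 genes averaged over genotypes, 4252 in the knockout and 3209 in wildtype. The median size of the log2 difference between the gates, averaged over genotypes and regardless of sign, was 0.2 for the 10 genes and 0.4 for all genes. These sizes were not matched for level. The mean level of the 10 genes lay above that of 65.9% (Atf6) to 99.7% (Hsp90b1) of all genes tested. Groups that do not overlap were common: 57.1% of all genes separated the gates in the knockout, where 7 of the 10 did (Atf4, Atf6, Hspa5, Hsp90b1, Herpud1 and Trib3 higher and Ern1 lower in CD29hi). In wildtype 52.1% of all genes did, and 3 of the 10 (Trib3 higher, Xbp1 and Ern1 lower).

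**Figure D1:**
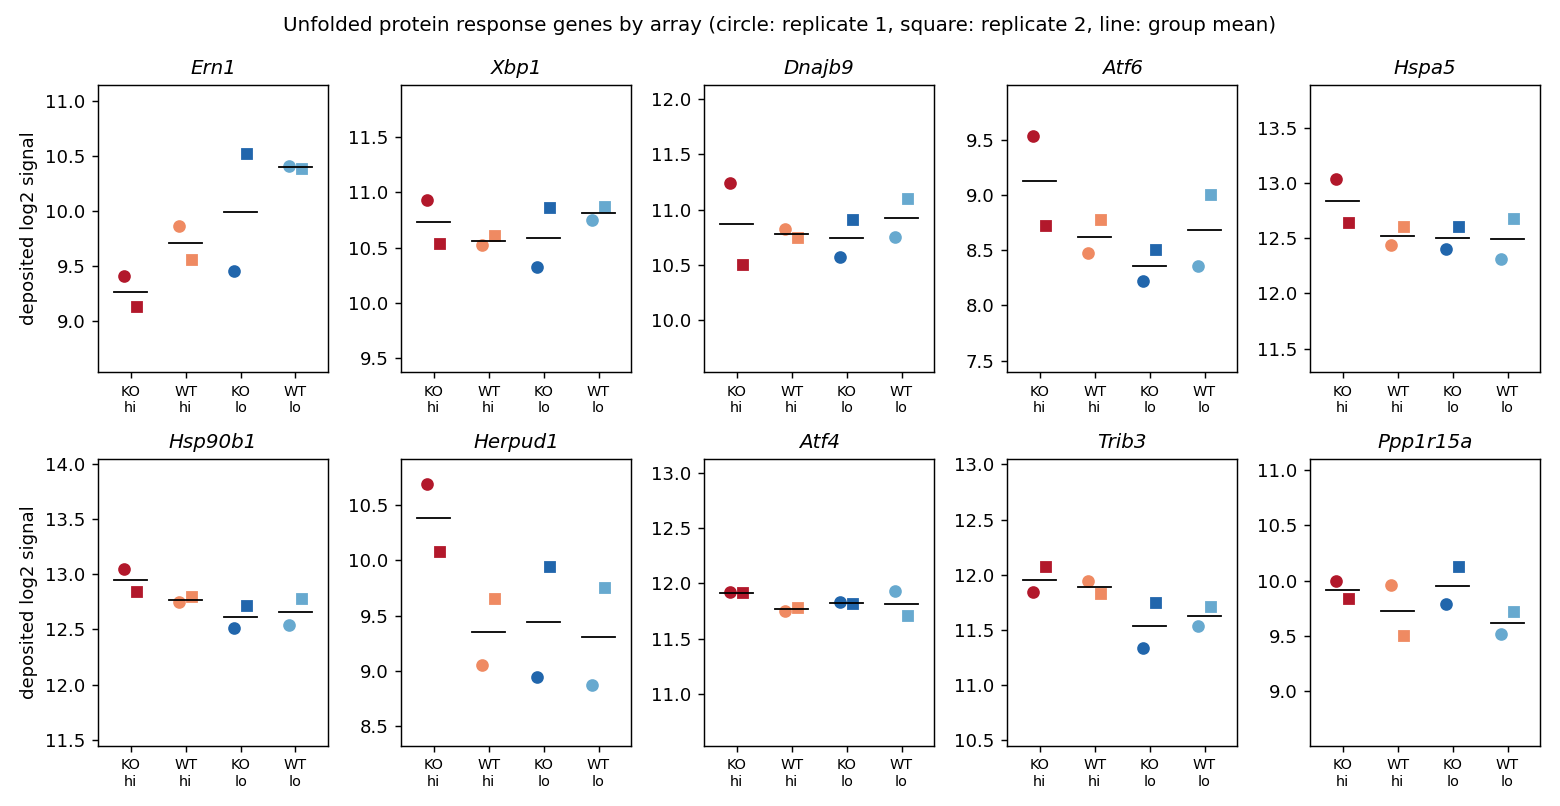
Deposited log2 signal of the leading probe set of each gene on each array, with KO and WT of the CD29hi (hi) and CD29lo (lo) sorts. Circles are replicate 1, squares replicate 2 and lines group means, and every panel spans the same height; Herpud1 covers 1.82 log2 units over the 8 arrays and Atf4 0.23.

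Ern1, the IRE1 sensor, was the gene of the 10 that lay lowest in CD29hi relative to CD29lo. It read 9.41 and 9.13 in KO CD29hi, 9.86 and 9.56 in WT CD29hi, 9.46 and 10.52 in KO CD29lo, and 10.41 and 10.38 in WT CD29lo. Both sorts separated within each genotype, but KO CD29lo replicate 1 lay below both WT CD29hi arrays. Averaged over genotypes the log2 difference of CD29hi minus CD29lo was -0.7 ± 0.231 SE (95% interval -1.23 to -0.17, limma adjusted p = 0.0612). Without KO CD29lo replicate 1 it was -0.97 with a limma adjusted p of 0.00538, and with quantile normalization -0.74 with a limma adjusted p of 0.0497, so the call depends on 1 array and on the scaling. Over the 19 alternatives its limma adjusted p was 0.00538 to 0.166 and passed in 2. In fits of every probe set the 4 other Ern1 probe sets gave differences of -0.61, -0.89, -0.96 and -0.97 in the same direction.

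The knockout arrays of CD29hi also lay below their wildtype counterparts for Ern1, without passing. The log2 fold change was -0.44 ± 0.326 SE in CD29hi (limma adjusted p = 0.842) and -0.41 ± 0.326 SE in CD29lo (limma adjusted p = 0.856). In CD29lo the groups overlapped. The other Ern1 probe sets did not all share this sign, with fold changes of -0.5 to 0.44 in CD29hi and -0.3 to 1.25 in CD29lo. Groups of 2 that do not overlap are common on this array, 39.5% of all genes in CD29hi and 34.3% in CD29lo, so the separation in CD29hi is near what other genes show. In CD29hi 5 of the 10 genes had separate groups, Ern1 lower and Atf4, Hspa5, Hsp90b1 and Herpud1 higher in the knockout, and in CD29lo 1 had, Ppp1r15a, higher in the knockout. With both gates pooled 0 of the 10 separated the genotypes, against 3.24% of all genes.

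Xbp1, the transcription factor downstream of IRE1, varied little. It read 10.93 and 10.53 in KO CD29hi against 10.52 and 10.6 in WT CD29hi, and 10.32 and 10.86 in KO CD29lo against 10.75 and 10.87 in WT CD29lo. The gap of 0.54 between the KO CD29lo replicates was larger than the spread of 0.25 between the 4 group means. The fold change in the knockout was 0.17 ± 0.214 SE in CD29hi (95% interval -0.32 to 0.66) and -0.22 ± 0.214 SE in CD29lo (-0.71 to 0.27), on the log2 scale. Splicing of Xbp1 was not measured here, so these values are those of the whole transcript. Dnajb9, an ER co-chaperone that is a target of XBP1, read 11.24 and 10.5 in KO CD29hi against 10.82 and 10.74 in WT CD29hi, and 10.57 and 10.91 in KO CD29lo against 10.75 and 11.1 in WT CD29lo. Its highest and its lowest array were both KO CD29hi, and its group means differed by at most 0.19.

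Herpud1, which helps to remove misfolded proteins from the ER, had the largest difference of the 10 genes in knockout CD29hi cells. It read 10.69 and 10.08 in KO CD29hi against 9.05 and 9.65 in WT CD29hi, so both knockout arrays lay above both wildtype arrays. The means were 10.38 ± 0.431 in KO CD29hi and 9.35 ± 0.424 in WT CD29hi (SD, n = 2 each). The log2 fold change was 1.03 ± 0.428 SE with a 95% interval of 0.05 to 2.02, which did not pass after adjustment over all genes (limma adjusted p = 0.617). In CD29lo it read 8.94 and 9.94 in KO against 8.87 and 9.75 in WT, and the groups overlapped with a log2 fold change of 0.13 ± 0.428 SE (limma adjusted p = 0.965). The difference between these contrasts was 0.91 ± 0.605 SE (limma adjusted p = 0.961). The replicates of the CD29lo groups were up to 1.0 apart, close to the spread of 1.08 between the 4 group means. The other probe set of Herpud1 read 10.03 and 9.02 in KO CD29hi against 8.39 and 8.86 in WT CD29hi, again without overlap.

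Atf6, the sensor that induces ER chaperones, read 9.53 and 8.72 in KO CD29hi against 8.47 and 8.77 in WT CD29hi, and 8.22 and 8.5 in KO CD29lo against 8.36 and 9.0 in WT CD29lo. Both pairs of groups overlapped. KO CD29hi replicate 1 stood above all other arrays, while its replicate lay among the WT CD29hi values, and in CD29lo the knockout value of 8.5 lay above the lower wildtype array. The log2 fold change was 0.51 ± 0.353 SE in CD29hi (limma adjusted p = 0.825) and -0.32 ± 0.353 SE in CD29lo (limma adjusted p = 0.896).

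Hspa5, the main ER chaperone of the Hsp70 family (BiP), read 13.04 and 12.64 in KO CD29hi against 12.44 and 12.6 in WT CD29hi, and 12.4 and 12.6 in KO CD29lo against 12.31 and 12.67 in WT CD29lo. KO CD29hi lay above WT CD29hi by 0.32 ± 0.161 SE on the log2 scale (95% interval -0.05 to 0.69, limma adjusted p = 0.715), and the nearest arrays of the groups were 12.64 and 12.6. In CD29lo the knockout values lay inside the wildtype range (0.01 ± 0.161 SE, 95% interval -0.36 to 0.38). Hsp90b1, the ER chaperone GRP94, read 13.05 and 12.84 in KO CD29hi against 12.75 and 12.79 in WT CD29hi, and 12.51 and 12.71 in KO CD29lo against 12.54 and 12.78 in WT CD29lo. Its fold changes in the knockout were 0.17 ± 0.112 SE in CD29hi (limma adjusted p = 0.808) and -0.05 ± 0.112 SE in CD29lo (limma adjusted p = 0.949). Hsp90b1 was higher in CD29hi than in CD29lo by 0.22 ± 0.0794 SE over both genotypes without passing (95% interval 0.04 to 0.4, limma adjusted p = 0.0798), and its gate groups overlapped through WT CD29hi replicate 1 and WT CD29lo replicate 2. In the fit of every probe set its other probe set differed between the gates by only 0.1 ± 0.079 SE (limma adjusted p = 0.421), and by -0.04 ± 0.112 SE within wildtype.

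**Figure D2:**
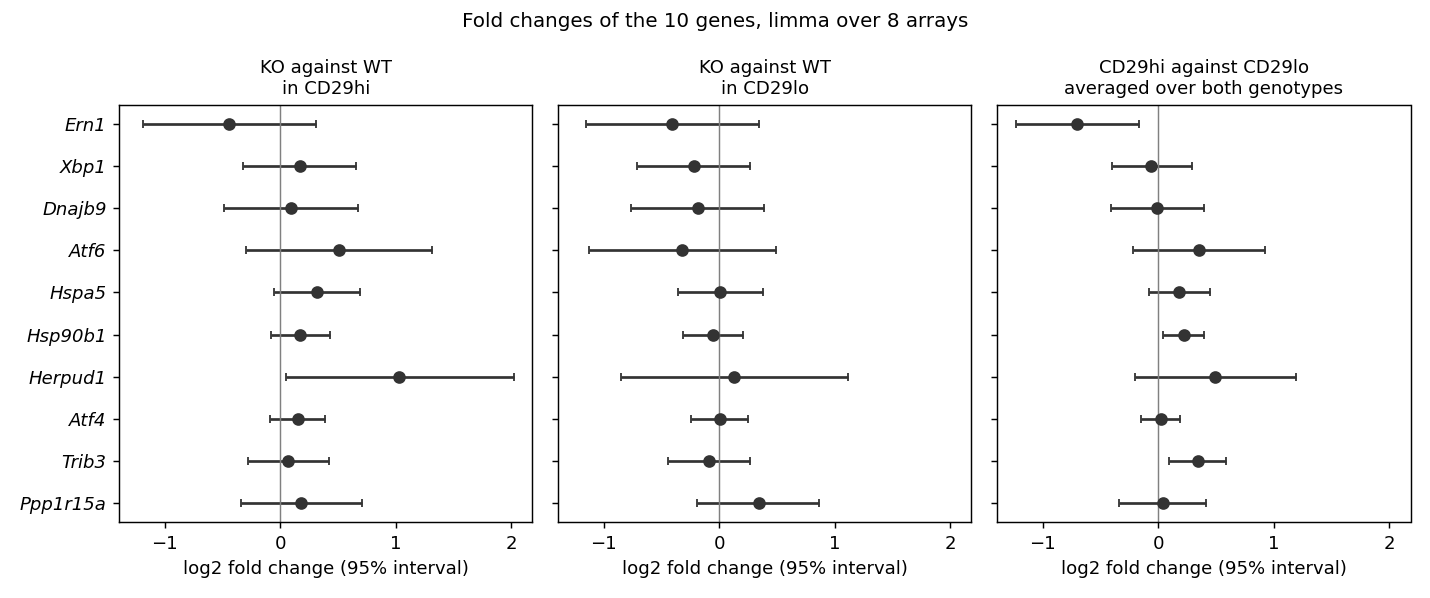
Log2 fold changes (horizontal axis) of the 10 genes with 95% intervals from the limma fit over 8 arrays, for KO against WT in each sort and for CD29hi against CD29lo over both genotypes. The interval of Herpud1 in CD29hi runs from 0.05 to 2.02, and the intervals of Ern1, Hsp90b1 and Trib3 between the gates lie on 1 side of 0 before adjustment over all genes.

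Atf4, the transcription factor of the PERK branch, is controlled largely through its translation, which arrays do not see. Its leading probe set was flat, with 11.92 and 11.91 in KO CD29hi against 11.75 and 11.78 in WT CD29hi, and 11.83 and 11.81 in KO CD29lo against 11.93 and 11.7 in WT CD29lo. The log2 fold change in the knockout was 0.15 ± 0.105 SE in CD29hi (95% interval -0.09 to 0.39) and 0.01 ± 0.105 SE in CD29lo (-0.24 to 0.25). These intervals are those of the leading probe set alone. The remaining, dim probe set, above the background on 5 of 8 arrays, gave -0.39 ± 0.524 SE in CD29hi and -0.59 ± 0.524 SE in CD29lo in the fit of every probe set. The probe sets disagreed between the gates. The other bright probe set read 11.97 and 11.67 in KO CD29hi, 11.82 and 11.54 in WT CD29hi, 11.37 and 11.34 in KO CD29lo, and 11.36 and 11.49 in WT CD29lo, every CD29hi array above every CD29lo array. When every probe set was tested on its own it was higher in CD29hi by 0.36 ± 0.102 SE (limma adjusted p = 0.0374), while in the same fit the leading one differed by 0.02 ± 0.0765 SE (limma adjusted p = 0.872). The leading probe set has the suffix that the manufacturer gives to sets open to cross-hybridisation, and which of them follows Atf4 was not tested.

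Trib3, a pseudokinase that ATF4 induces and that feeds back on it, was the only gene of the 10 whose 4 CD29hi arrays all lay above its 4 CD29lo arrays, a separation that 25.3% of all genes showed in one direction or the other. It read 11.84 and 12.07 in KO CD29hi, 11.94 and 11.83 in WT CD29hi, 11.34 and 11.74 in KO CD29lo, and 11.54 and 11.71 in WT CD29lo. The log2 difference of CD29hi minus CD29lo was 0.34 ± 0.108 SE (95% interval 0.09 to 0.59), with a limma adjusted p of 0.0569. Over the 19 alternatives this limma adjusted p was 0.019 to 0.206 and passed in 5. It was 0.0345 with the replicate number as a block and 0.019 without KO CD29lo replicate 2, against 0.122 with quantile normalization, 0.206 without a trend of the variance and 0.169 without KO CD29hi replicate 2 (limma adjusted p each). The leading probe set of Trib3 has the same cross-hybridisation suffix as that of Atf4. Its other probe set, without that suffix, differed by 0.56 ± 0.154 SE when every probe set was tested (limma adjusted p = 0.0327). Between genotypes Trib3 differed by 0.07 ± 0.153 SE in CD29hi and -0.09 ± 0.153 SE in CD29lo.

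Ppp1r15a encodes GADD34, which restores translation after PERK has slowed it. It read 10.0 and 9.83 in KO CD29hi against 9.96 and 9.5 in WT CD29hi, and 9.79 and 10.12 in KO CD29lo against 9.52 and 9.72 in WT CD29lo. In CD29lo both knockout arrays lay above both wildtype arrays, by 0.34 ± 0.229 SE (limma adjusted p = 0.829), and in CD29hi the groups overlapped (0.18 ± 0.229 SE, limma adjusted p = 0.927). Its level did not separate the gates (0.04 ± 0.162 SE). Genes known to respond to tissue dissociation were also measured, immediate early genes such as Fos and the heat shock genes Hspa1a, Hspa1b and Dnajb1, which the cytosolic heat shock list holds too. The mean log2 level of these 17 genes was 10.43 and 10.51 in KO CD29hi against 10.19 and 10.3 in WT CD29hi, and 11.07 and 10.9 in KO CD29lo against 10.47 and 10.65 in WT CD29lo. Both knockout arrays were thus above both wildtype arrays in each sort, 0 of the 17 genes passed in either, and their part in the Ppp1r15a values was not tested.

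Much of the variation of the 10 genes lay between replicates of a group. In KO CD29hi replicate 1 was above replicate 2 in 9 of the 10 genes, with a median gap of 0.34, while over all genes 48.2% were higher in replicate 1. In KO CD29lo replicate 2 was the higher one in 9 of the 10 genes (45.7% of all genes were higher in replicate 1), and in WT CD29lo in 8 of the 10 (41.9%). WT CD29hi showed no such lean, with 4 genes higher in replicate 1 and 6 in replicate 2. The replicates of Herpud1 were apart by 0.61 in KO CD29hi, 0.6 in WT CD29hi, 1.0 in KO CD29lo and 0.88 in WT CD29lo, and in each of these groups Atf6, Hspa5 and Hsp90b1 were higher on the same array as Herpud1. The fibroblast marker signal was higher in replicate 2 of all 4 groups, KO CD29hi included, where Herpud1 was lower in replicate 2. Its part in these gaps was not tested.

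The profiles of Atf6, Hspa5, Hsp90b1 and Herpud1 ran closely together over the 8 arrays. This is a description, since the arrays fall into 4 groups and are not independent. Pearson's r between Hspa5 and Herpud1 was 0.95 (Spearman's rho 0.91), and it was 0.93 without the 2 arrays farthest from the median of Hspa5. For Atf6 and Hspa5 r was 0.95 (rho 0.93), and 0.82 without the 2 arrays farthest from the median of Atf6. For Hsp90b1 and Herpud1 r was 0.89 (rho 0.81), and 0.72 without the 2 farthest. Xbp1 and Dnajb9, transcription factor and target, had an r of 0.84 (rho 0.81) and 0.75 without the 2 farthest. The r between Ern1 and Hsp90b1 was the lowest of any pair at -0.38 (rho -0.57), and -0.14 without the 2 farthest. After the group means were taken off, r of this pair was 0.58, so its negative sign lies in the group means.

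**Figure D3:**
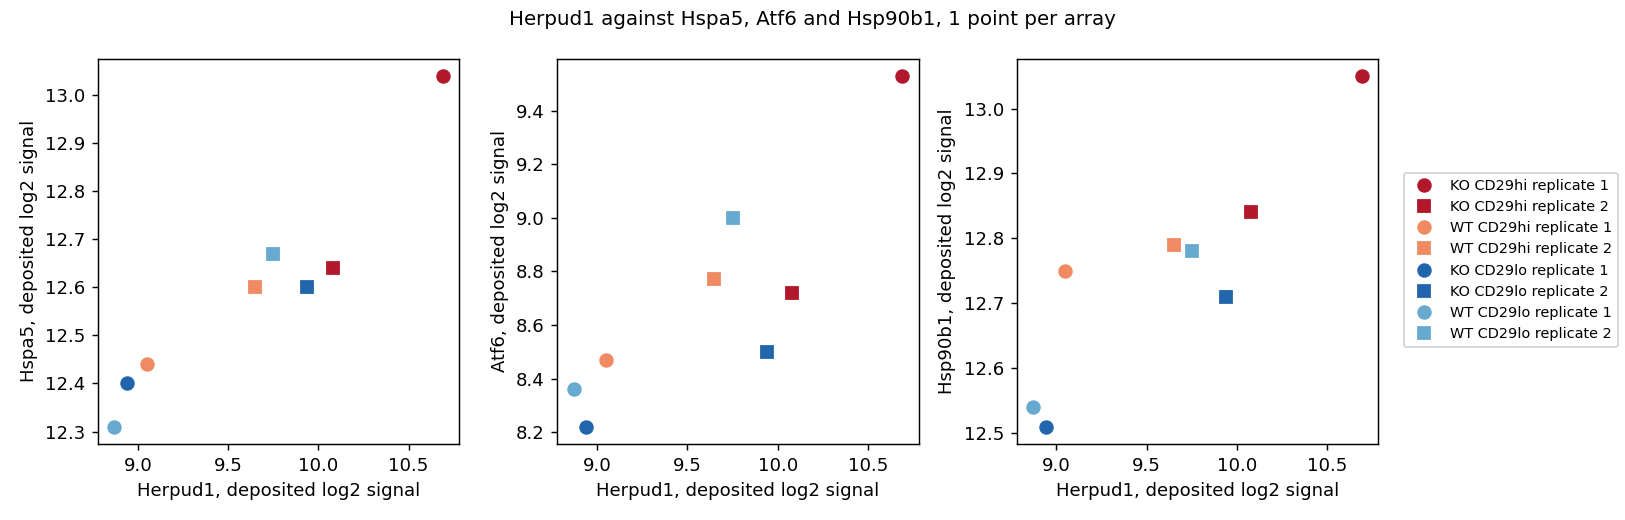
Log2 signal of Hspa5, Atf6 and Hsp90b1 (vertical axes) against that of Herpud1 (horizontal axis), 1 point per array, with colours for groups, circles for replicate 1 and squares for replicate 2. KO CD29hi replicate 1 is highest in all 3 panels, with 10.69 for Herpud1.

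The genes whose profile was most like that of each member were found by Pearson's r over the 8 arrays among all 14598 genes tested, the 3 highest per member. For Hspa5 they were 1810014B01Rik (0.971), Herpud1 (0.95) and Atf6 (0.947), and for Atf6 1810014B01Rik (0.973), Hspa5 (0.947) and the ER stress gene Creld2 (0.941). For Hsp90b1 they were the ER disulfide isomerase gene Pdia3 (0.975), the ER chaperone gene Hyou1 (0.973) and Ybx3 (0.972). For Herpud1 they were Adarb2 (0.971), Tfcp2 (0.965) and the ER chaperone gene Calr (0.964). For Dnajb9 they were Pm20d2 (0.942), Lypd6 (0.942) and the ER protein gene Erp44 (0.939), and for Xbp1 Steap2 (0.947), Tmem102 (0.946) and the vesicle transport gene Uso1 (0.94). They were Ahcyl2 (0.978), Hap1 (0.972) and Slc24a3 (0.97) for Ern1, Slc1a7 (0.963), Sag (0.953) and Drd4 (0.94) for Atf4, Cmtm3 (0.978), Zfp691 (0.973) and Nlgn2 (0.97) for Trib3, and Morc2a (0.969), Ppfia1 (0.941) and Erich6 (0.94) for Ppp1r15a. These values rank genes over 8 arrays and test nothing.

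Other genes of the same pathways were taken from 4 lists, besides a list of cytosolic heat shock genes, without the 10 genes themselves. Between genotypes none passed: 0 of 18 tested genes of the PERK and ATF4 branch with its amino acid targets, 0 of 17 of the IRE1 and XBP1 branch, 0 of 21 of the ATF6 branch and ER chaperones, 0 of 19 of ER-associated degradation and 0 of 16 of cytosolic heat shock, by limma in either sort or with the sorts averaged. In CD29hi the median log2 fold changes of KO against WT in this order of lists were 0.27, 0.06, 0.21, 0.0 and 0.17, against -0.02 over all genes. In CD29lo they were -0.24, -0.1, -0.18, -0.16 and -0.01, against -0.06 over all genes. In the PERK list 15 of 18 genes lay above 0 in CD29hi and 3 of 18 in CD29lo, and in the chaperone list 15 of 21 and 2 of 21. Over all genes 48.1% lay above 0 in CD29hi and 43.6% in CD29lo. By mean log2 level, the chaperone list with its members read 10.85 and 10.36 in KO CD29hi against 10.34 and 10.57 in WT CD29hi. In CD29lo it read 9.8 and 10.4 in KO against 10.05 and 10.63 in WT, so the genotypes overlapped in both sorts. The PERK list with its members read 11.31 and 11.18 in KO CD29hi against 11.07 and 10.86 in WT CD29hi, without overlap. In CD29lo it read 10.52 and 10.71 against 10.65 and 10.89, with overlap. Outside the ER stress lists, 16 of 16 cytosolic heat shock genes lay above 0 in CD29hi and 7 of 16 in CD29lo. By mean log2 level the heat shock list read 12.54 and 12.58 in KO CD29hi against 12.13 in WT CD29hi replicate 2. WT CD29hi replicate 1 lay only just below the knockout arrays, so this lean rested largely on 1 wildtype array. In the chaperone list KO CD29hi replicate 1 was the highest array instead, and whether these leans are related was not tested. Whether a gene's genotype contrast differed between the gates was tested in the interaction, where 0 genes of these lists passed. The 11 fibroblast markers moved with genotype in CD29lo too, with a median of -1.37 and 0 of 11 above 0 in the knockout, and 0.52 and 6 of 11 in CD29hi, none of them past the test. Of 8 endothelial markers 1 lay above 0 in CD29lo (median -0.7) and 3 in CD29hi (median -0.23), and of the 17 dissociation genes 17 in CD29lo (median 0.24) and 13 in CD29hi (median 0.2). The part of these marker lists in the medians was not tested.

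Between the gates the PERK list, which includes amino acid targets, was where calls collected. The lists were chosen with earlier results of these data known, so these counts describe the list and test nothing. Averaged over genotypes 11 of its 18 genes were higher in CD29hi and 3 were lower, with a median of 0.64, while over all genes 12.2% were higher, 10.8% lower and the median was 0.01. The counts were 8 to 12 higher and 3 lower whichever array was left out, 12 and 3 without both CD29lo arrays numbered 2, 7 and 2 without a trend of the variance, 10 and 3 with values raised to at least 4, and 6 and 1 with that floor and no filter on low values. With the mean of probe sets 10 genes of the list were higher and 2 lower. In the knockout alone 11 were higher and 1 lower (7.41% and 6.66% of all genes), and in wildtype alone 4 and 1 (3.96% and 4.23%).

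The 4 genes of this list that rose in CD29hi with the smallest p were Mthfd2, Shmt2, Asns and Vldlr. Mthfd2, of the mitochondrial folate cycle, read 11.74 and 11.55 in KO CD29hi, 11.46 and 11.3 in WT CD29hi, 10.04 and 10.37 in KO CD29lo, and 10.46 and 10.59 in WT CD29lo, a difference of 1.15 ± 0.113 SE (limma adjusted p = 0.000293). Shmt2, which makes one-carbon units from serine in mitochondria, was higher by 1.66 ± 0.205 SE (limma adjusted p = 0.000836), and its CD29hi arrays read 10.42 to 10.68 against 8.29 to 9.58 in CD29lo. Asns, asparagine synthetase, was higher by 0.69 ± 0.0859 SE (limma adjusted p = 0.000888) and the lipoprotein receptor gene Vldlr by 1.42 ± 0.182 SE (limma adjusted p = 0.00102), both with no overlap of the gates.

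The sensor of the same branch moved the other way. Eif2ak3, which encodes PERK, read 6.91 and 5.13 in KO CD29hi, 7.14 and 6.86 in WT CD29hi, 8.97 and 8.74 in KO CD29lo, and 8.48 and 8.72 in WT CD29lo. Every CD29hi array lay below every CD29lo array, and the log2 difference was -2.22 ± 0.372 SE (limma adjusted p = 0.00383). Atf3, which is also an immediate early gene, fell by 0.76 ± 0.153 SE (limma adjusted p = 0.00953) with overlapping gates, and the stress gene Nupr1 fell by 0.5 ± 0.108 SE (limma adjusted p = 0.0119). The dissociation genes, of which Atf3 is 1, were lower in CD29hi in 8 of 17 cases and higher in 0.

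The other branches are read against the 12.2% of all genes that were higher and the 10.8% that were lower in CD29hi. In the IRE1 and XBP1 list 3 of 17 genes rose in CD29hi and 0 fell: the translocon genes Ssr2 (0.57 ± 0.142 SE, limma adjusted p = 0.0231) and Ssr1 (0.49 ± 0.144 SE, limma adjusted p = 0.0412) and the vesicle coat gene Sec24d (1.47 ± 0.435 SE, limma adjusted p = 0.0424). In the chaperone list 2 of 21 rose and 0 fell, the ER oxidase gene Ero1a (1.09 ± 0.127 SE, limma adjusted p = 0.00065) and the disulfide isomerase gene Pdia4 (1.1 ± 0.314 SE, limma adjusted p = 0.0382). The gates overlapped for Pdia4. Of 19 genes of ER-associated degradation 0 passed by limma. Of the cytosolic heat shock genes Hspa4 rose by 0.33 ± 0.0788 SE (limma adjusted p = 0.0181) and Hspa1a fell by 0.31 ± 0.0869 SE (limma adjusted p = 0.0341), 1 of 16 each way. The gates overlapped for Hspa1a. Without a trend of the variance 0 genes of the IRE1 list, 1 of the chaperone list and 0 of the heat shock list passed. The medians of these 4 lists were 0.26, 0.3, 0.14 and 0.08. Leaving out single arrays gave medians of 0.1075 to 0.415 for the IRE1 list and 0.1975 to 0.3675 for the chaperone list. Fibroblast markers, higher in CD29lo, moved with the gates too (0 higher and 10 of 11 lower in CD29hi), and their part in these differences was not tested.

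**Figure D4:**
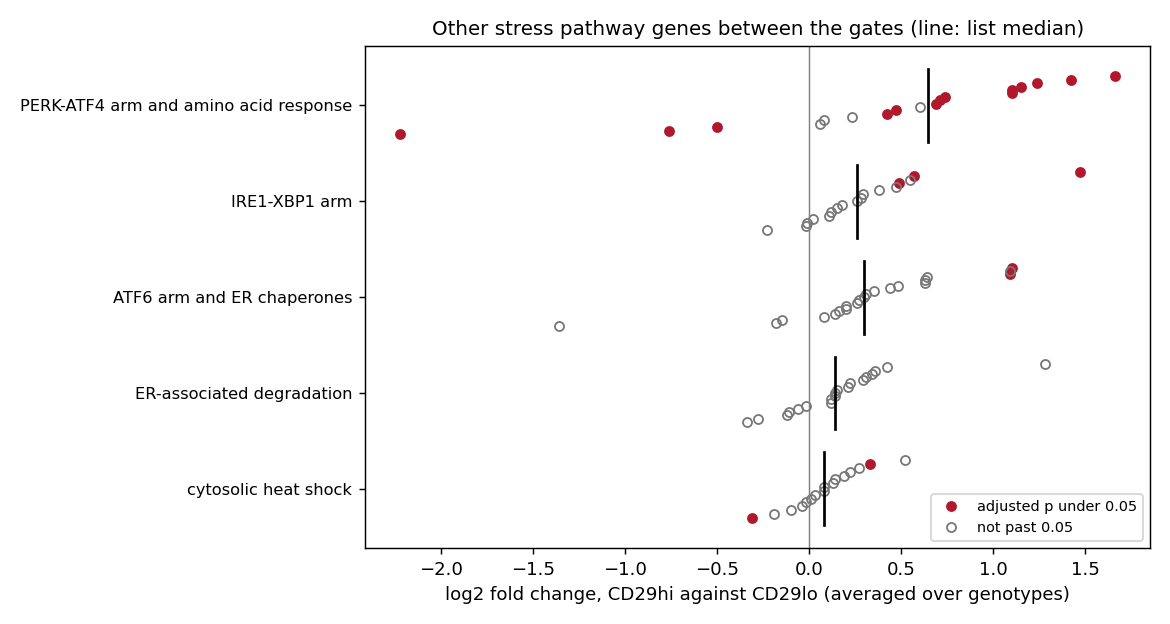
Log2 fold change of CD29hi against CD29lo (horizontal axis) for the genes of 5 stress lists other than the 10 members, 1 point per gene, filled where the limma adjusted p is under 0.05, with a line at the median of each list. In the top row 11 filled points lie right of 0 and 3 left, and the other rows hold at most 3 filled points each.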

How the data were processed

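Per the labels' protocols, RNA of FACS-sorted mammary epithelial cells was isolated with the Arcturus Pico Pure kit, amplified with a NuGEN FFPE kit and labelled with biotin for Affymetrix arrays. The deposited values are log2 signals per probe set, read as log2 from their range of 0 to 14.42. They were used as deposited; how the authors normalised them is not given in the sources used here. Of 45101 probe sets, 34958 carry 1 gene in the platform annotation of 2016, 932 several and 9211 none. 34754 matched a RefSeq gene ID, which gave current names.

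Each gene was represented by its brightest probe set, and genes under the 25th percentile of probe set means (3.51) were left out, which left 14598 tested genes and all 10 members. limma 3.58.1 (R 4.3.3; lmFit on 4 groups, eBayes with a variance trend, 4 residual and 4.31 prior degrees of freedom) gave 7 two-sided contrasts, adjusted by Benjamini-Hochberg over all genes, threshold 0.05. SE and 95% intervals are those of this fit. Errors of means are SDs. The number of arrays limits the precision, and p-values rest only on the spread between replicates within a group, pooled over the groups fitted. Through eBayes this spread also draws on the replicates of other genes. The fit was tested on simulated data.

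The members, the 5 stress lists and the marker lists were chosen with earlier results of these data known. Named are all 10 members with their probe sets, Cebpb, list genes called between genotypes, up to 4 called genes per list and direction between gates, and the 3 genes most correlated with each member. Alternatives were quantile normalization, other filters, other uses of probe sets, no trend, a block for the replicate number, fits on the compared arrays alone and leaving out each array. Added after the data were seen were values raised to at least 4 (with and without the filter) and both CD29lo arrays numbered 2 left out. Figures were drawn with matplotlib 3.10.9.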

Additional observations from a re-analysis of the deposited data

How the results depend on the processing

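None of the 10 genes passed in a genotype contrast or the interaction under any of the 20 alternatives (smallest limma adjusted p 0.216 over 780 values). Between the gates averaged over genotypes, 1 of the 10 passed with quantile normalization (Ern1), and 1 with the 50th percentile filter, the mean of probe sets or the replicate block (Trib3 each time). Without both CD29lo arrays numbered 2, 3 passed there (Trib3 0.48, Hsp90b1 0.33, Herpud1 0.96) and 2 in the knockout (Herpud1 1.45, Trib3 0.61). Leaving out each array in turn, the count of the 10 was 0 to 1 in both of these contrasts (Ern1 or Trib3) and 0 in the other contrasts. Of 1370 single values under the alternatives, 82 had the other sign, none of them called.

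Over all genes 2 were called in CD29hi, 2 in CD29lo, 10 averaged, 2053 between gates in the knockout, 1196 in wildtype and 3345 averaged. The 50th percentile filter gave 1, 1 and 2 in the first 3, and no variance trend 1, 1 and 4, with 785 between gates in wildtype. The mean of probe sets gave 0 in CD29hi. Only the arrays compared gave 4 in CD29hi and 0 in CD29lo. Every probe set gave 3569, 1945 and 5719 between gates, where more features were tested. Values raised to at least 4 on the same 14598 genes gave 1, 0 and 6 in the first 3. That floor together with no filter, on 18194 genes, gave 9, 12, 24 and, for the interaction, 12 (0 otherwise), then 1223 and 562 between gates. Both CD29lo arrays numbered 2 left out gave 0 in CD29lo and 5 averaged. Leaving out single arrays gave 0 to 3, 0 to 2, 3 to 21, 722 to 1913, 512 to 1383 and 1995 to 3077, and 0 for the interaction. The PERK list had 7 higher without a variance trend, and 6 higher and 1 lower with the floor and no filter, against 11 and 3, and 8 to 12 higher and 3 to 3 lower without single arrays. The causes were not tested.

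The labels number replicates 1 and 2 in each group without saying that a number marks a pool. Differences between replicates correlated between groups by 0.00563 to 0.321, the highest being KO CD29lo with WT CD29lo. Between the gates of 1 genotype they correlated by 0.0236 in the knockout and 0.0952 in wildtype. What lies behind these values was not tested, and the main fit did not use the numbers as pairs. With the replicate block 16 genes were called between genotypes on average and 3650 between gates, and with pools as a random block 10 and 3410. It changed no other call of the 10 genes.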
